A study of Mus with 12 samples.

Results

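The genes described here encode the machinery of oxidative phosphorylation, and they were chosen from the deposited gene table by name: rows named Nduf, Sdha to Sdhd, Uqcr, Cox4 to Cox8, Atp5, mt-Nd, mt-Co, mt-Cytb or mt-Atp, without names containing -ps. The rule found 105 genes of the 27294 in the table, and 13 further matches were left out for -ps in their name. Of the 105 genes, 92 lie on nuclear chromosomes and 13 on the mitochondrial genome. Complex I had 46 members and its Ndufaf assembly factors 8, complex II had 4, complex III 9, complex IV 18 and ATP synthase 19. Cox7a2l, which joins complexes III and IV into supercomplexes, was kept apart as 1 gene. Ndufa4 was counted with complex IV, where its protein is now placed. The filter on low counts kept 102 members, all 13 mitochondrially encoded genes among them. The remaining 3 members, Ndufa11b, Ndufs6b and Cox6c2, were not tested.

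Oxidative phosphorylation takes place in the inner mitochondrial membrane. Complexes I and II pass electrons from NADH and succinate to ubiquinone, complex III passes them to cytochrome c, complex IV passes them to oxygen, and ATP synthase uses the proton gradient that results. Complexes I, III, IV and ATP synthase each combine subunits made inside the mitochondrion with subunits imported from the cytosol, while complex II is encoded in the nucleus alone. Macrophages under inflammatory activation are known for lowering mitochondrial respiration and relying more on glycolysis.

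RNA came from mouse primary peritoneal macrophages, which are macrophages of the abdominal cavity, in 12 libraries of 4 groups with n = 3 libraries each. The groups were KO cells with oxLDL, KO cells without treatment, wild-type (WT) cells with oxLDL and WT cells without treatment. OxLDL is oxidised low-density lipoprotein, a modified cholesterol carrier that macrophages take up, and the titles of the treated libraries say LDL. The labels give KO without a gene, an allele or a promoter that drives a deletion, and the series title names the kinase WEE1. They give no strain, age, dose or exposure time. They do not state if replicates are separate animals or cultures, and the p-values then speak only to the spread among the libraries, which may be technical. In bulk RNA, fewer cells of a kind and less RNA per cell cannot be told apart.

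Library totals ran from 53588814 to 76809931 counts. Wee1 was at 1.25 to 1.6 FPKM in KO libraries with oxLDL, 1.22 to 1.63 in untreated KO libraries, 1.44 to 1.78 in oxLDL-treated WT libraries and between 2.8 and 3.25 in WT libraries without treatment, so it was detected in all 12 libraries. FPKM is the fragment count scaled by transcript length and library size, so that levels of different genes can be compared. The 8 macrophage markers were all detected, with summed levels of 10600 to 11300 FPKM in KO with oxLDL, 11100 to 11800 in untreated KO, 14500 to 15500 in oxLDL-treated WT and between 21000 and 21300 in WT without treatment. Lyz2, a lysozyme of myeloid cells, made up most of each sum, and other markers were ordered differently. Cd68 averaged 2000 FPKM in both KO groups, 1380 in WT with oxLDL and 1630 in untreated WT, while Adgre1, the F4/80 antigen, averaged 152 in KO with oxLDL, 158 in untreated KO, 762 in WT with oxLDL and 545 in untreated WT. Gata6, a transcription factor that marks resident large peritoneal macrophages, averaged 0.173, 0.199, 0.0991 and 0.249 FPKM in the same order of groups. The part that the differing marker levels had in the results below was not tested. Summed markers of T cells, B cells, mast cells, adipocytes and mesothelial cells reached at most 4.68 FPKM in any library, those of fibroblasts 12 and those of neutrophils 17.5.

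Per length, transcripts of the mitochondrial genome were far more abundant than those of nuclear members. Their mean level over the 12 libraries ran from 86 FPKM for mt-Nd3 to 6150 FPKM for mt-Co1, with a median of 1330 FPKM. Nuclear members ran from 0.00912 FPKM for Ndufa11b to 126 FPKM for Atp5a1, the alpha subunit of ATP synthase, with a median of 8.11 FPKM. Among the nuclear classes, complex II had a median of 38.9 FPKM over its 4 genes, complex III 17.2, ATP synthase 7.86, complex I 7.77, complex IV 6.4 and the Ndufaf assembly factors 2.16. Transcript lengths implied by the counts and FPKM values ran from 278 to 8498 bases in nuclear members. Several of these genes encode small proteins yet have long implied lengths, such as 5970 bases for Ndufb2, which lowers their FPKM. mt-Co1, the catalytic subunit of complex IV, held 40.3% ± 0.643 of all mitochondrially encoded member counts in KO with oxLDL, 40.6% ± 0.841 in untreated KO, 47.5% ± 0.442 in WT with oxLDL and 44.8% ± 0.873 in untreated WT (SD, n = 3 each). The KO libraries thus carried a smaller mt-Co1 share within the mitochondrial transcripts than the WT libraries. Their mt-Cytb share, the mitochondrially encoded subunit of complex III, was larger, at 9.16% ± 0.128 and 8.95% ± 0.0609 in KO with oxLDL and untreated, against 7.1% ± 0.0829 and 7.95% ± 0.12 in WT with oxLDL and untreated.

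The mitochondrially encoded members took 2.4, 2.475 and 2.593% of all gene counts in KO with oxLDL, and 2.758, 2.498 and 2.925% in untreated KO. They took 1.839, 1.86 and 1.802% in WT with oxLDL, and 2.456, 2.259 and 2.054% in untreated WT. WT with oxLDL was the lowest group and did not overlap any other. Untreated KO lay above untreated WT in every library, and the KO groups overlapped each other. The mean difference was -0.423 percentage points for oxLDL over untreated in WT, 0.471 for KO over WT untreated and 0.656 for KO over WT with oxLDL, each with an exact two-sided permutation p of 0.1, the smallest that 3 against 3 libraries can give (0.133 after Benjamini-Hochberg adjustment over the 4 comparisons). For oxLDL over untreated in KO the difference was -0.238 percentage points (exact permutation p = 0.2, adjusted 0.2). The 2 mitochondrial ribosomal RNAs, outside the name rule, took 0.0564% ± 0.0054 of counts in untreated KO, against 0.0605% ± 0.0032 in untreated WT (SD). With oxLDL they took 0.0536% ± 0.0008 in KO and 0.0531% ± 0.0028 in WT. The libraries overlapped in both comparisons, and these shares were not tested.

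Nuclear members together took 0.3467, 0.3291 and 0.3012% of counts in KO with oxLDL, 0.3086, 0.3275 and 0.3022% in untreated KO, 0.2474, 0.2485 and 0.2574% in WT with oxLDL, and 0.3716, 0.3831 and 0.3788% in untreated WT. Untreated WT was the highest group and WT with oxLDL the lowest, with both KO groups between them and overlapping each other. The ratio of mitochondrial to nuclear member counts therefore ordered the groups differently from either share. It averaged 7.68 ± 0.855 in KO with oxLDL, 8.75 ± 1.04 in untreated KO, 7.31 ± 0.265 in WT with oxLDL and 5.98 ± 0.596 in untreated WT (SD, n = 3 each). The ratio was higher by 2.77 in untreated KO than in untreated WT and by 1.33 in WT with oxLDL than in untreated WT, each with an exact permutation p of 0.1 (adjusted 0.2), and these groups did not overlap. It was higher by 0.377 in KO with oxLDL than in WT with oxLDL, where the libraries overlapped (exact permutation p = 0.6, adjusted 0.6).

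**Figure D1:**
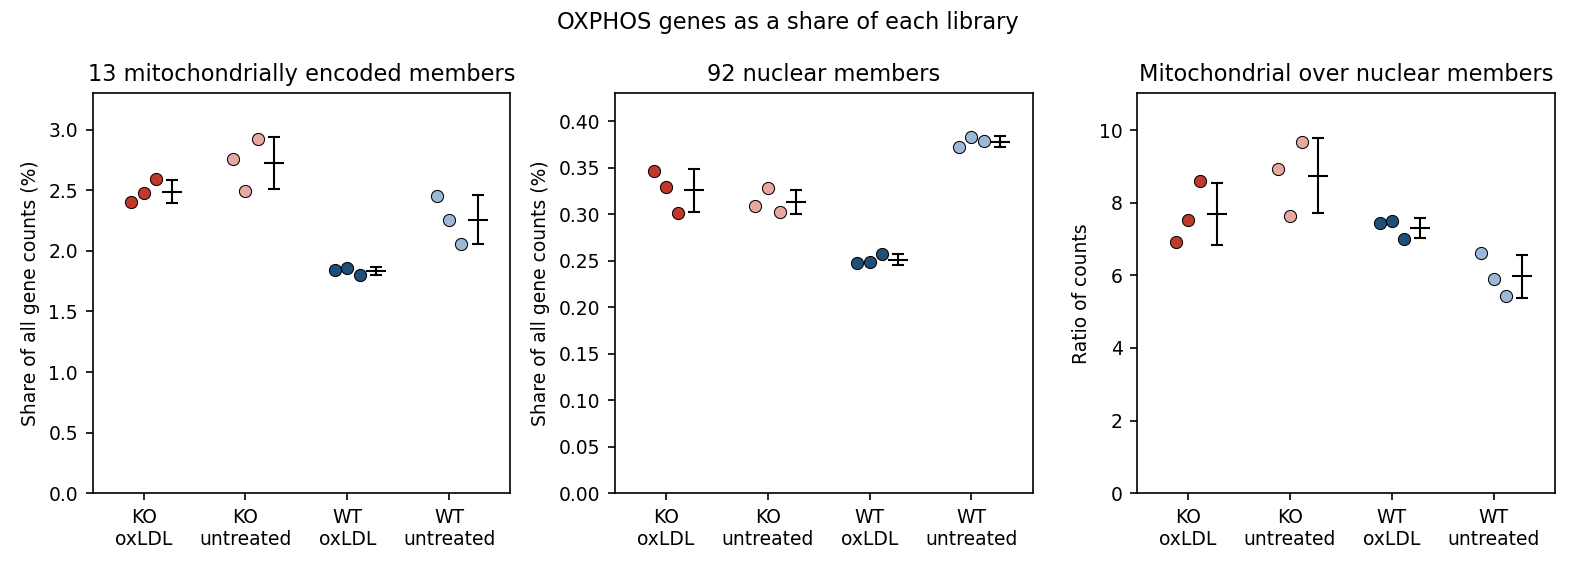
Share of all gene counts, in percent, taken by the 13 mitochondrially encoded members (left) and the 92 nuclear members (middle), and the ratio of their counts (right), in each library of the 4 groups; bars give the mean and SD of n = 3. WT with oxLDL is lowest in both shares, while untreated WT is highest in the nuclear share and lowest in the ratio, at 5.98.

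The remaining comparisons used edgeR's quasi-likelihood test on the counts of all 17291 genes that passed the filter, with library sizes scaled by TMM, which assumes that most genes do not differ. Calls were made where the Benjamini-Hochberg adjusted p, taken over those genes, was under 0.05. Fitted log2 changes are on the TMM scale, whereas FPKM values rest on library totals, and the FPKM means can therefore differ by another factor than the fit gives. The gap matters most in WT with oxLDL: with library totals alone the median of all genes for oxLDL over untreated in WT was -0.46, against -0.06 on the TMM scale. The 4 simple contrasts share groups with each other, so the same libraries enter more than 1 of them.

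The first question was what oxLDL did to these genes in WT macrophages. Of the 89 nuclear members tested, 43 were called lower, 2 higher and 44 not called, against 27.2% of all genes called lower and 23.9% called higher. Their median log2 change was -0.31 beside -0.06 for all genes. Of the 13 mitochondrially encoded members, 1 was called higher and 1 lower, with a median of 0.05. With library totals alone, 77 nuclear members were lower and none higher, and all 13 mitochondrially encoded members were lower, where 48.1% of all genes were called lower and 12.9% higher. The median of nuclear members relative to that of all genes was -0.26 under both scalings, and that of mitochondrially encoded members was 0.106 under both. This mitochondrial value was -0.00764 without WT untreated replicate 3, 0.222 without WT untreated replicate 1 and 0.163 without WT oxLDL replicate 3. It was 0.0335 with the gene length offset, 0.034 with no filter and -0.0162 in limma on log2(FPKM + 1), so its sign was not stable.

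Complex I, which oxidises NADH, had 21 of 37 nuclear subunits lower and none higher in WT with oxLDL. Ndufb10, a subunit of its membrane arm (ENSMUSG00000040048, chromosome 17, 24722060 to 24724478 on GRCm38), was at 9.87, 9.02 and 8 FPKM in WT with oxLDL, against 21.4, 21 and 22.3 FPKM in untreated WT. The groups were far apart, and the fitted log2 change was -0.86 ± 0.12 (SE; adjusted p = 4.22e-05 in edgeR's test). Ndufs7, an iron-sulfur subunit near the ubiquinone site (ENSMUSG00000020153, chromosome 10, 80249121 to 80256793), was at 5.15, 3.93 and 3.84 FPKM with oxLDL, against 9.01, 10.6 and 9.33 FPKM untreated, a change of -0.75 ± 0.17. Ndufb2, another membrane arm subunit, was at a low level, with 0.221 ± 0.0417 FPKM in WT with oxLDL against 0.606 ± 0.0446 FPKM in untreated WT (SD, n = 3 each), and changed by -1.02 ± 0.17.

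Among complex I assembly factors, 4 of 8 were lower and none higher. The furthest was Ndufaf7, a methyltransferase that modifies a complex I subunit during assembly (ENSMUSG00000024082, chromosome 17, 78937136 to 78948052). It was at 0.656, 0.52 and 0.643 FPKM in WT with oxLDL, against 2.95, 2.73 and 2.81 FPKM in untreated WT, a fitted log2 change of -1.79 ± 0.12 (adjusted p = 9.07e-09 in edgeR's test). Every treated library was far below every untreated library. Ndufaf4 changed by -0.73 ± 0.18 and Ndufaf1, the assembly factor with the highest mean level, by -0.50 ± 0.13. Ndufaf8, the lowest of them, was at 0.568 ± 0.584 FPKM with oxLDL and 0.681 ± 0.0467 FPKM untreated and was not called.

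Complex II, succinate dehydrogenase, had 3 of its 4 genes lower. Sdha, the flavoprotein that oxidises succinate (ENSMUSG00000021577, chromosome 13, 74322254 to 74350280), was at 32.9, 33.2 and 33.3 FPKM in WT with oxLDL, against 66.9, 67.2 and 69.3 FPKM in untreated WT. The replicates within each group lay close together, and the log2 change was -0.62 ± 0.04 (adjusted p = 1.05e-08 in edgeR's test). Sdhb, the iron-sulfur subunit, changed by -0.49 ± 0.07 and Sdhd, a membrane anchor, by -0.46 ± 0.06. Sdhc, the other membrane anchor, was at 16, 18.6 and 18.6 FPKM with oxLDL, against 23.4, 25.6 and 24.7 FPKM untreated, and its log2 value of -0.06 ± 0.06 was not called (adjusted p = 0.471 in edgeR's test).

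In complex III 2 of 8 nuclear subunits were lower and 1 higher, in complex IV 4 of 14 were lower, and in ATP synthase 8 of 17 were lower and 1 higher. Over all genes 27.2% were called lower, so the complex III and complex IV shares were near the background. The 4 complex IV calls were those of Cox4i1, Cox6b1, Cox6b2 and Cox7b. Each was lost when any of several single libraries was left out. Cox7a2l was at 30.4, 33.4 and 32.8 FPKM in WT with oxLDL, against 62.3, 68.5 and 63.8 FPKM in untreated WT, a change of -0.60 ± 0.09 (adjusted p = 7.36e-05 in edgeR's test). The alpha and beta subunits of ATP synthase parted on the TMM scale: Atp5a1 changed by -0.16 ± 0.05 (adjusted p = 0.0146 in edgeR's test) and Atp5b by 0.33 ± 0.04 (adjusted p = 6.99e-06), although the rise of Atp5b became -0.077 with library totals alone. Atp5b (ENSMUSG00000025393, chromosome 10, 128083273 to 128090391) was at 95, 99.5 and 99.4 FPKM with oxLDL, against 102, 103 and 105 FPKM untreated. On this unscaled measure it was slightly lower with oxLDL, and Atp5a1, at 95.3 ± 5.18 FPKM with oxLDL against 141 ± 5.16 untreated, was lower by more. Uqcrc2, a core subunit of complex III, was the other nuclear member called higher, at 0.16 ± 0.05, but became -0.25 with library totals alone. Its call was lost without WT oxLDL replicate 2 (adjusted p = 0.0514 in edgeR's test) or WT untreated replicate 1 (adjusted p = 0.0577).

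Among mitochondrial transcripts in the same comparison, mt-Nd3, a complex I subunit, was at 39.7, 53.7 and 43.9 FPKM in WT with oxLDL, against 89.7, 93.5 and 73.2 FPKM in untreated WT. Its log2 change was -0.49 ± 0.14 (adjusted p = 0.00823 in edgeR's test), and the groups did not overlap. mt-Co1 was called higher at 0.19 ± 0.05 (adjusted p = 0.00607), and this reversed to -0.21 with library totals alone; its FPKM was 5318, 5451 and 5336 with oxLDL, against 6613, 6288 and 5782 untreated. The other 11 ranged from -0.12 for mt-Nd1 to 0.19 for mt-Nd5 and were not called. Without WT untreated replicate 1, 4 mitochondrially encoded members and 1 nuclear member were called higher, and without KO oxLDL replicate 3, 2 mitochondrially encoded members were.

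The same question in KO macrophages gave no called member. None of the 89 nuclear and 13 mitochondrially encoded members passed in edgeR's test, where 0.0116% of all genes were called higher and 0.0% lower. At an unadjusted p under 0.05, 7 nuclear members were higher and none lower, and 2 mitochondrially encoded members were lower. DESeq2 called 2 nuclear members, Ndufs7 and Uqcrq, and limma on log2(FPKM + 1) called none. Uqcrq, a small subunit of complex III that helps bind ubiquinone (ENSMUSG00000044894, chromosome 11, 53427922 to 53430831), was at 8.53, 7.74 and 7.46 FPKM in KO with oxLDL, against 3.3, 3.87 and 2.58 FPKM in untreated KO. These groups did not overlap, and the log2 value was 1.28 ± 0.20 (adjusted p = 0.06 in edgeR's test). Ndufs7 was at 7.77, 9 and 10.1 FPKM in KO with oxLDL, against 6.38, 6.21 and 3.95 FPKM in untreated KO, with a log2 value of 0.70 ± 0.17 (adjusted p = 0.279). mt-Co1, the mitochondrial transcript with the smallest p, had a log2 value of -0.14 ± 0.05 (adjusted p = 0.522). The median was 0.08 over nuclear members and -0.10 over mitochondrially encoded members, beside -0.00383 for all genes. The nuclear median was -0.0158 without KO oxLDL replicate 1, 0.19 without KO oxLDL replicate 3 and 0.13 without KO untreated replicate 2, so its sign rested on KO oxLDL replicate 1. The mitochondrial median was -0.162 without KO untreated replicate 2 and -0.0647 without KO untreated replicate 3. Without WT oxLDL replicate 1 or replicate 2, which change the shared estimate of the spread, 1 nuclear member was called higher.

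**Figure D2:**
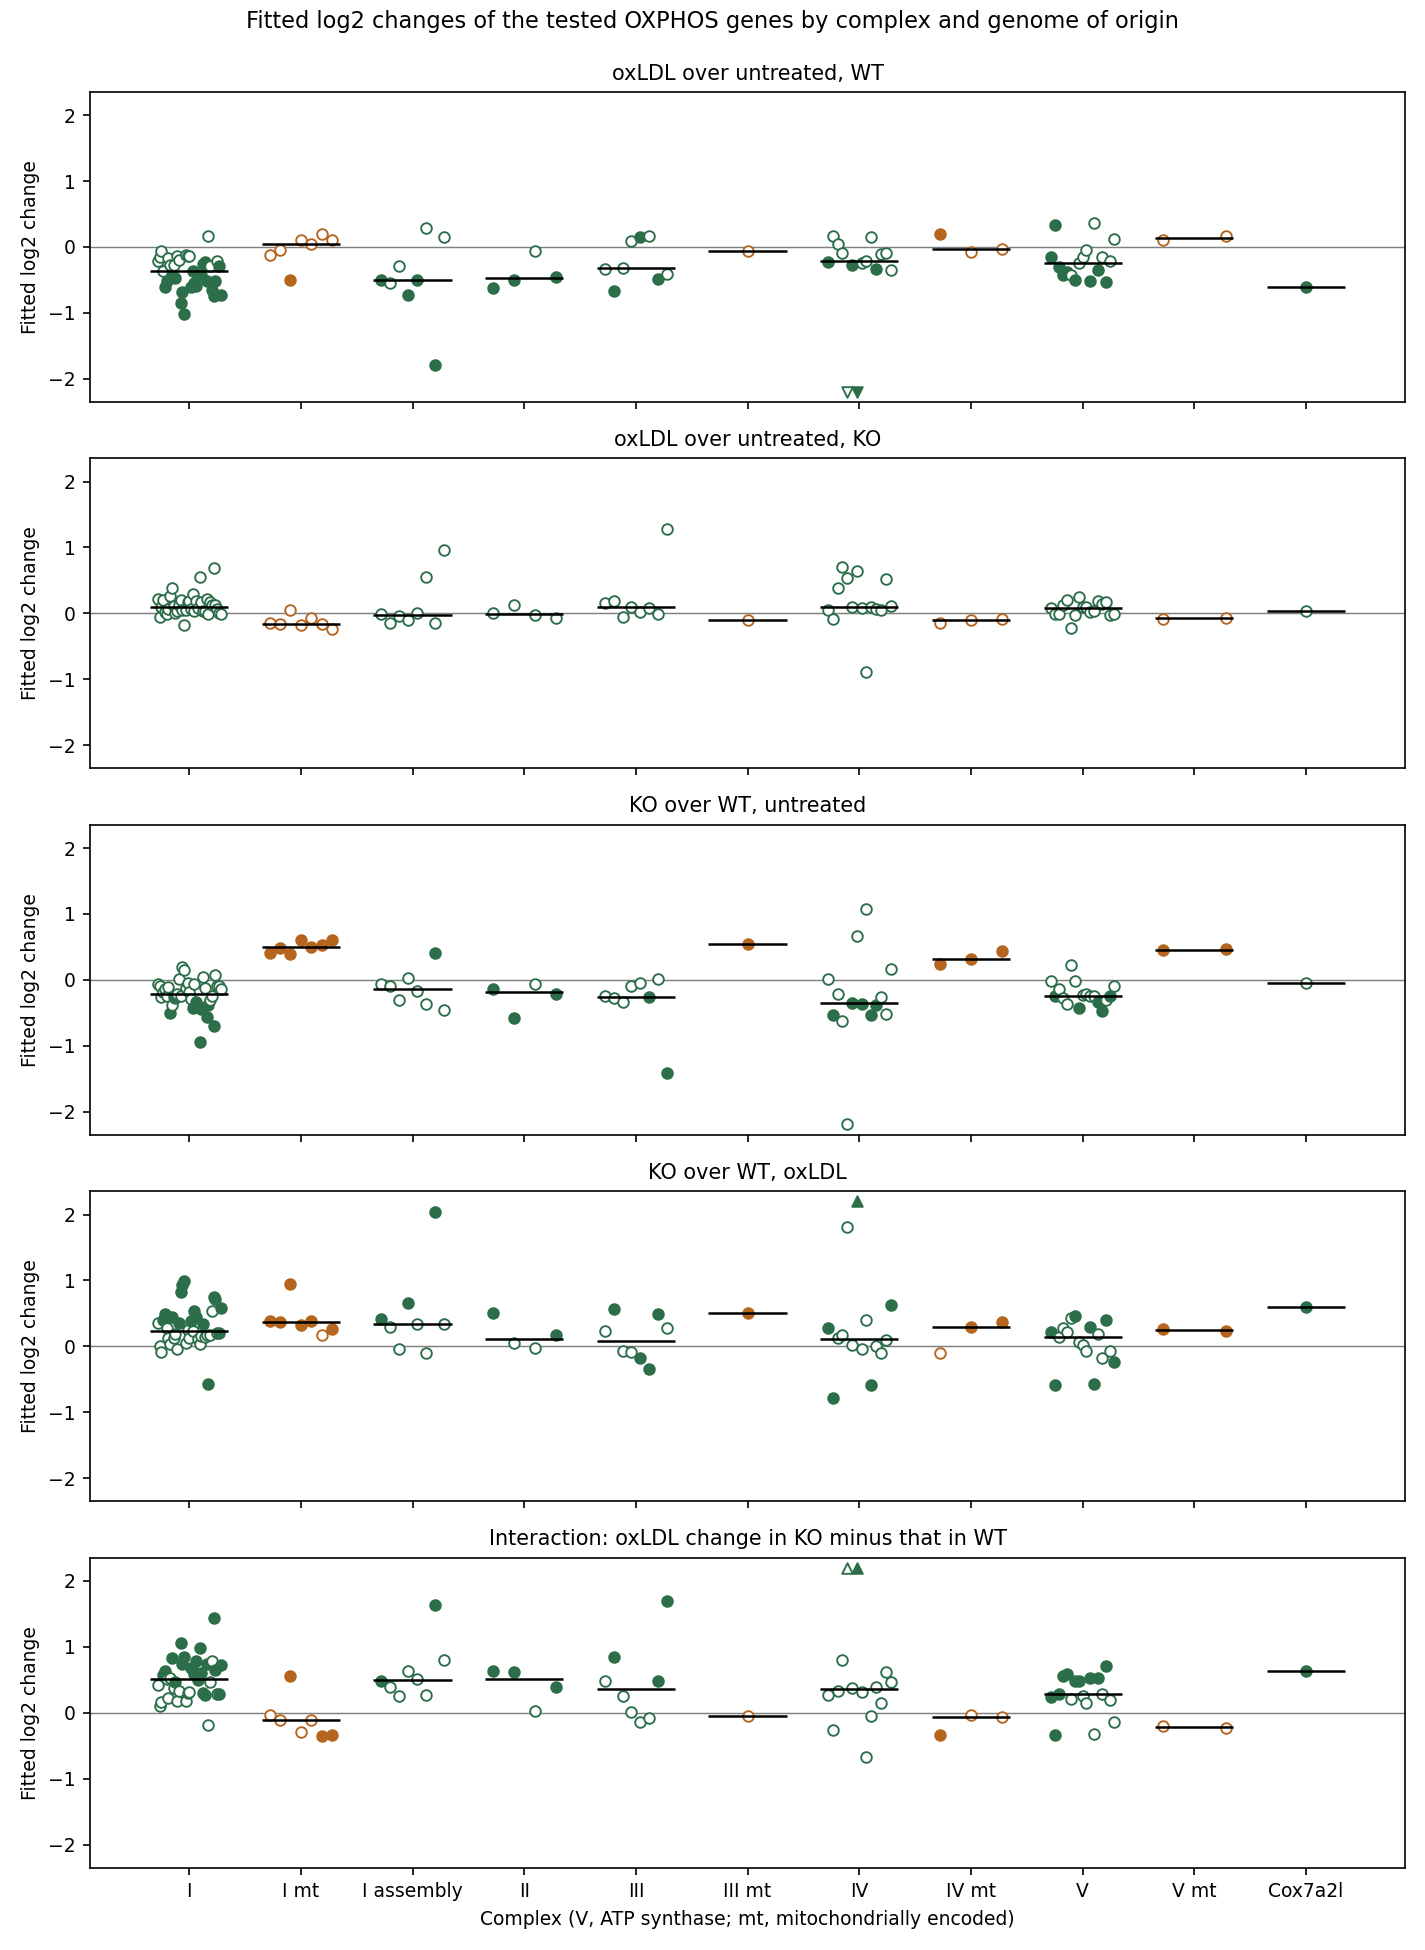
Fitted log2 change of each of the 102 tested members in the 5 contrasts, by complex and genome of origin (green, nuclear; brown, mitochondrially encoded); filled points were called, bars are class medians, and triangles at the edge mark Cox6a2 and Cox6b2 beyond the axis. In untreated KO over WT the 13 brown points lie above 0 while 25 nuclear members are called lower.

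In KO over WT without treatment the members differed by genome of origin. All 13 mitochondrially encoded members were called higher, with a median of 0.46, while 25 of 89 nuclear members were called lower and 1 higher, with a median of -0.24. Over all genes, 14.8% were called higher and 16.2% lower, with a median of -0.01. Relative to that median, the mitochondrially encoded members stood at 0.474 and the nuclear members at -0.229, and with library totals alone at 0.475 and -0.229. With the gene length offset the nuclear value was -0.119, and fewer nuclear members were called lower. Of the members named below, Atp5md, Cox7b, Sdhd and Uqcrfs1 lost their calls there (adjusted p between 0.0859 and 0.374 in edgeR's test), and none gained one. Over all genes 5494 of 17291 were called with the offset, 2628 of them higher. The nuclear share called lower was thus nearer to the background. With totals alone 10 mitochondrially encoded members were called higher, and 43 nuclear members were called lower and none higher, where 10.2% of all genes were called higher and 22.3% lower.

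mt-Nd6, a complex I subunit and the sole member encoded on the minus strand of the mitochondrial genome, was at 1071, 910 and 1179 FPKM in untreated KO, against 816, 731 and 690 FPKM in untreated WT. Each KO library lay above each WT library, and the log2 difference was 0.60 ± 0.09 (adjusted p = 7.13e-05 in edgeR's test). Whether reads were counted by strand is not given. The mt-Nd6 values, here and below, may therefore hold reads of the opposite strand. mt-Nd4 differed by 0.60 ± 0.11, mt-Cytb by 0.55 ± 0.07, mt-Nd5 by 0.53 ± 0.08, mt-Nd4l by 0.49 ± 0.12, mt-Nd2 by 0.48 ± 0.09 and mt-Nd1 by 0.41 ± 0.09. The ATP synthase transcripts mt-Atp8 and mt-Atp6, which overlap on the genome, stood at 0.46 ± 0.07 and 0.45 ± 0.07. In complex IV the differences were 0.43 ± 0.06 for mt-Co3, 0.32 ± 0.08 for mt-Co2 and 0.24 ± 0.05 for mt-Co1. mt-Co1 was at 6899, 6399 and 7180 FPKM in untreated KO, against 6613, 6288 and 5782 FPKM in untreated WT, and these libraries overlapped. mt-Nd3 stood at 0.39 ± 0.14 (adjusted p = 0.0423 in edgeR's test), and its call was lost when any of the 6 untreated libraries or WT oxLDL replicate 3 was left out (adjusted p between 0.0504 and 0.187). mt-Co1, mt-Co2 and mt-Nd3 were not called when library totals alone were used.

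Of the nuclear members called in untreated KO, Uqcrq differed most, at -1.42 ± 0.20 (adjusted p = 5.18e-05 in edgeR's test). Its 3.3, 3.87 and 2.58 FPKM in untreated KO stood against 7.16, 10.3 and 10.6 FPKM in untreated WT. Uqcrfs1, the Rieske iron-sulfur protein of complex III, was called lower at -0.26 ± 0.08 (adjusted p = 0.031 in edgeR's test). The other 6 nuclear subunits of the complex were not called, with values from -0.33 for Uqcrb to 0.01 for Uqcrh. The Uqcrfs1 call was lost without any of the 3 KO untreated replicates or without WT untreated replicate 1 or 2 (adjusted p between 0.0549 and 0.145).

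In complex I, 10 of 37 nuclear subunits were lower and none higher in untreated KO. Ndufc1, an accessory subunit, was at 1.42, 1.38 and 0.987 FPKM in untreated KO, against 3.1, 2.81 and 1.97 FPKM in untreated WT, a difference of -0.95 ± 0.25 (adjusted p = 0.00968 in edgeR's test). That call was lost without WT untreated replicate 1 (adjusted p = 0.0505) or KO untreated replicate 3 (adjusted p = 0.0515). Ndufs7 differed by -0.70 ± 0.17 and Ndufs3, a core subunit of the peripheral arm, by -0.56 ± 0.11. The only nuclear member called higher was Ndufaf7, at 3.49, 3.83 and 3.12 FPKM in untreated KO, against 2.95, 2.73 and 2.81 FPKM in untreated WT (0.40 ± 0.11, adjusted p = 0.0119 in edgeR's test). Its call was lost without WT untreated replicate 2 (adjusted p = 0.0516) or KO untreated replicate 2 (adjusted p = 0.0729), and with library totals alone (adjusted p = 0.0509).

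Complex II again had 3 of 4 genes lower, ATP synthase 5 of 17 and complex IV 5 of 14 nuclear subunits. Sdhb was at 21.3, 21 and 20.1 FPKM in untreated KO, against 30.9, 32.4 and 36.6 FPKM in untreated WT, a difference of -0.57 ± 0.07 (adjusted p = 1.91e-05 in edgeR's test). Sdha and Sdhd differed by less, at -0.13 ± 0.04 and -0.22 ± 0.06, and Sdhc, at -0.06 ± 0.06, was not called. The Sdha call was lost without replicate 1 or 3 of either untreated group (adjusted p between 0.058 and 0.118 in edgeR's test), and that of Sdhd without WT untreated replicate 1 or 3 or KO untreated replicate 3 (adjusted p between 0.0506 and 0.0722). Cox7a2, a nuclear subunit of complex IV, was at 19.7, 19.7 and 18.4 FPKM in untreated KO, against 32.1, 28.5 and 29.7 FPKM in untreated WT (-0.54 ± 0.10). Atp5md, the ATP synthase member with the lowest mean level, was called at -0.46 ± 0.16 (adjusted p = 0.0456 in edgeR's test), and the call was lost without any of 7 single libraries (adjusted p between 0.05 and 0.183). The count of 25 nuclear members called lower moved with single libraries: it was 13 without WT untreated replicate 1, 15 without WT untreated replicate 2, 11 without KO untreated replicate 1 and 12 without KO untreated replicate 3. Over all genes, in the same order, 4684 of 17944, 4708 of 17902, 4621 of 17970 and 4571 of 17968 were called either way. Of these, 2221, 2215, 2193 and 2195 were called higher. In these 4 fits, with 90 nuclear members each, the nuclear share called lower was thus near that of all genes.

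In KO over WT with oxLDL, 30 of 89 nuclear members were called higher and 8 lower, and 11 of 13 mitochondrially encoded members were called higher and none lower. Over all genes 30.6% were called higher and 27.4% lower, so on the TMM scale the nuclear share called higher, 30 of 89, was near the background. The median was 0.20 over nuclear members, 0.32 over mitochondrially encoded members and 0.05 over all genes. Scaled by library totals, 64 nuclear members were higher and 4 lower, and all 13 mitochondrially encoded members were higher, where 43.6% of all genes were called higher and 19.1% lower. On that scale the nuclear share called higher was above the background. Relative to the median of all genes, nuclear members stood at 0.146 and mitochondrially encoded members at 0.266 under both scalings. The nuclear value was 0.0947 without WT oxLDL replicate 2, 0.0955 without KO oxLDL replicate 1, 0.235 without KO oxLDL replicate 3 and 0.243 with the gene length offset.

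The largest nuclear rise with a measured level in both groups was that of Ndufaf7, at 3.23, 3.06 and 3.1 FPKM in KO with oxLDL, against 0.656, 0.52 and 0.643 FPKM in WT with oxLDL. Its log2 difference was 2.04 ± 0.12 (adjusted p = 1.34e-09 in edgeR's test), the KO libraries being close to each other and far above WT. Complex I had 15 of 37 nuclear subunits higher and 1 lower. Ndufb11, a membrane arm subunit on the X chromosome (ENSMUSG00000031059, chromosome X, 20615326 to 20617619), was at 23, 21.2 and 15.6 FPKM in KO with oxLDL, against 8.53, 7.41 and 9.38 FPKM in WT with oxLDL (0.93 ± 0.15). Ndufb2 stood at 0.99 ± 0.17, Ndufb10 at 0.82 ± 0.12, Ndufs7 at 0.75 ± 0.17 and Ndufaf4 at 0.66 ± 0.18.

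Sdha was at 57.2, 60.5 and 56.2 FPKM in KO with oxLDL, against 32.9, 33.2 and 33.3 FPKM in WT with oxLDL, a difference of 0.50 ± 0.04 (adjusted p = 8.06e-08 in edgeR's test). Sdhb was at 23.6, 24 and 20.5 FPKM in KO with oxLDL, against 17.4, 17.3 and 18.8 FPKM in WT with oxLDL, without overlap. Its fitted 0.05 ± 0.07 was not called on the TMM scale. With library totals alone Sdhb stood at 0.35 and was called higher (adjusted p = 0.000596 in edgeR's test), so its contrast with Sdha depended on the scaling. Sdhd was called at 0.17 ± 0.06 (adjusted p = 0.0315 in edgeR's test) and lost the call without replicate 1 or 2 of either oxLDL group (adjusted p between 0.0878 and 0.206). Sdhc, at -0.03 ± 0.06, was not called on the TMM scale, and with library totals alone it stood at 0.28 and was called higher (adjusted p = 0.00116). Cox7a2l was at 67.6, 63 and 49.5 FPKM in KO with oxLDL, against 30.4, 33.4 and 32.8 FPKM in WT with oxLDL (0.60 ± 0.09).

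The 8 nuclear members called lower in KO with oxLDL were Cox5a, Cox7a2, Atp5b, Ndufs4, Atp5k, Uqcrfs1, Atp5pb and Uqcrc2. Cox5a, a nuclear subunit of complex IV (ENSMUSG00000000088, chromosome 9, 57521274 to 57532426), was at 4.57, 3.8 and 3.31 FPKM in KO with oxLDL, against 5, 5.5 and 5.85 FPKM in WT with oxLDL. Its difference was -0.79 ± 0.14 (adjusted p = 0.000283 in edgeR's test), with no overlap. Cox7a2 differed by -0.59 ± 0.10, and Ndufs4, an accessory subunit of complex I whose loss in mice causes a fatal encephalopathy, by -0.57 ± 0.10. Atp5b was at 81, 83.2 and 77 FPKM in KO with oxLDL, against 95, 99.5 and 99.4 FPKM in WT with oxLDL (-0.59 ± 0.04, adjusted p = 9.23e-09). With library totals alone these 4 stayed called lower, while Atp5k, a small subunit of ATP synthase, stood at -0.26 and Uqcrfs1 at -0.03, neither called. On that scale Atp5pb, the stator subunit b of ATP synthase, stood at 0.07 and was not called, and Uqcrc2 turned to 0.12 and was called higher.

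Of the mitochondrially encoded members, mt-Nd3 differed most with oxLDL: it was at 132, 96.9 and 97 FPKM in KO, against 39.7, 53.7 and 43.9 FPKM in WT, a difference of 0.95 ± 0.14 (adjusted p = 3.61e-05 in edgeR's test). mt-Cytb was at 1808, 1882 and 2001 FPKM in KO with oxLDL, against 1096, 1083 and 1071 FPKM in WT with oxLDL (0.51 ± 0.07, adjusted p = 2.49e-05). mt-Co1 and mt-Nd5 were not called, at -0.10 ± 0.05 and 0.18 ± 0.08. With library totals alone they stood at 0.20 and 0.48, and both were called higher. The other 9 ranged from 0.24 for mt-Atp8 to 0.38 for mt-Nd1. The calls of mt-Nd4, mt-Nd4l and mt-Nd6 were lost without WT oxLDL replicate 2, WT oxLDL replicate 3 or KO oxLDL replicate 3 (adjusted p between 0.051 and 0.103 in edgeR's test), and that of mt-Atp8 without WT oxLDL replicate 1 (adjusted p = 0.0503).

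**Figure D3:**
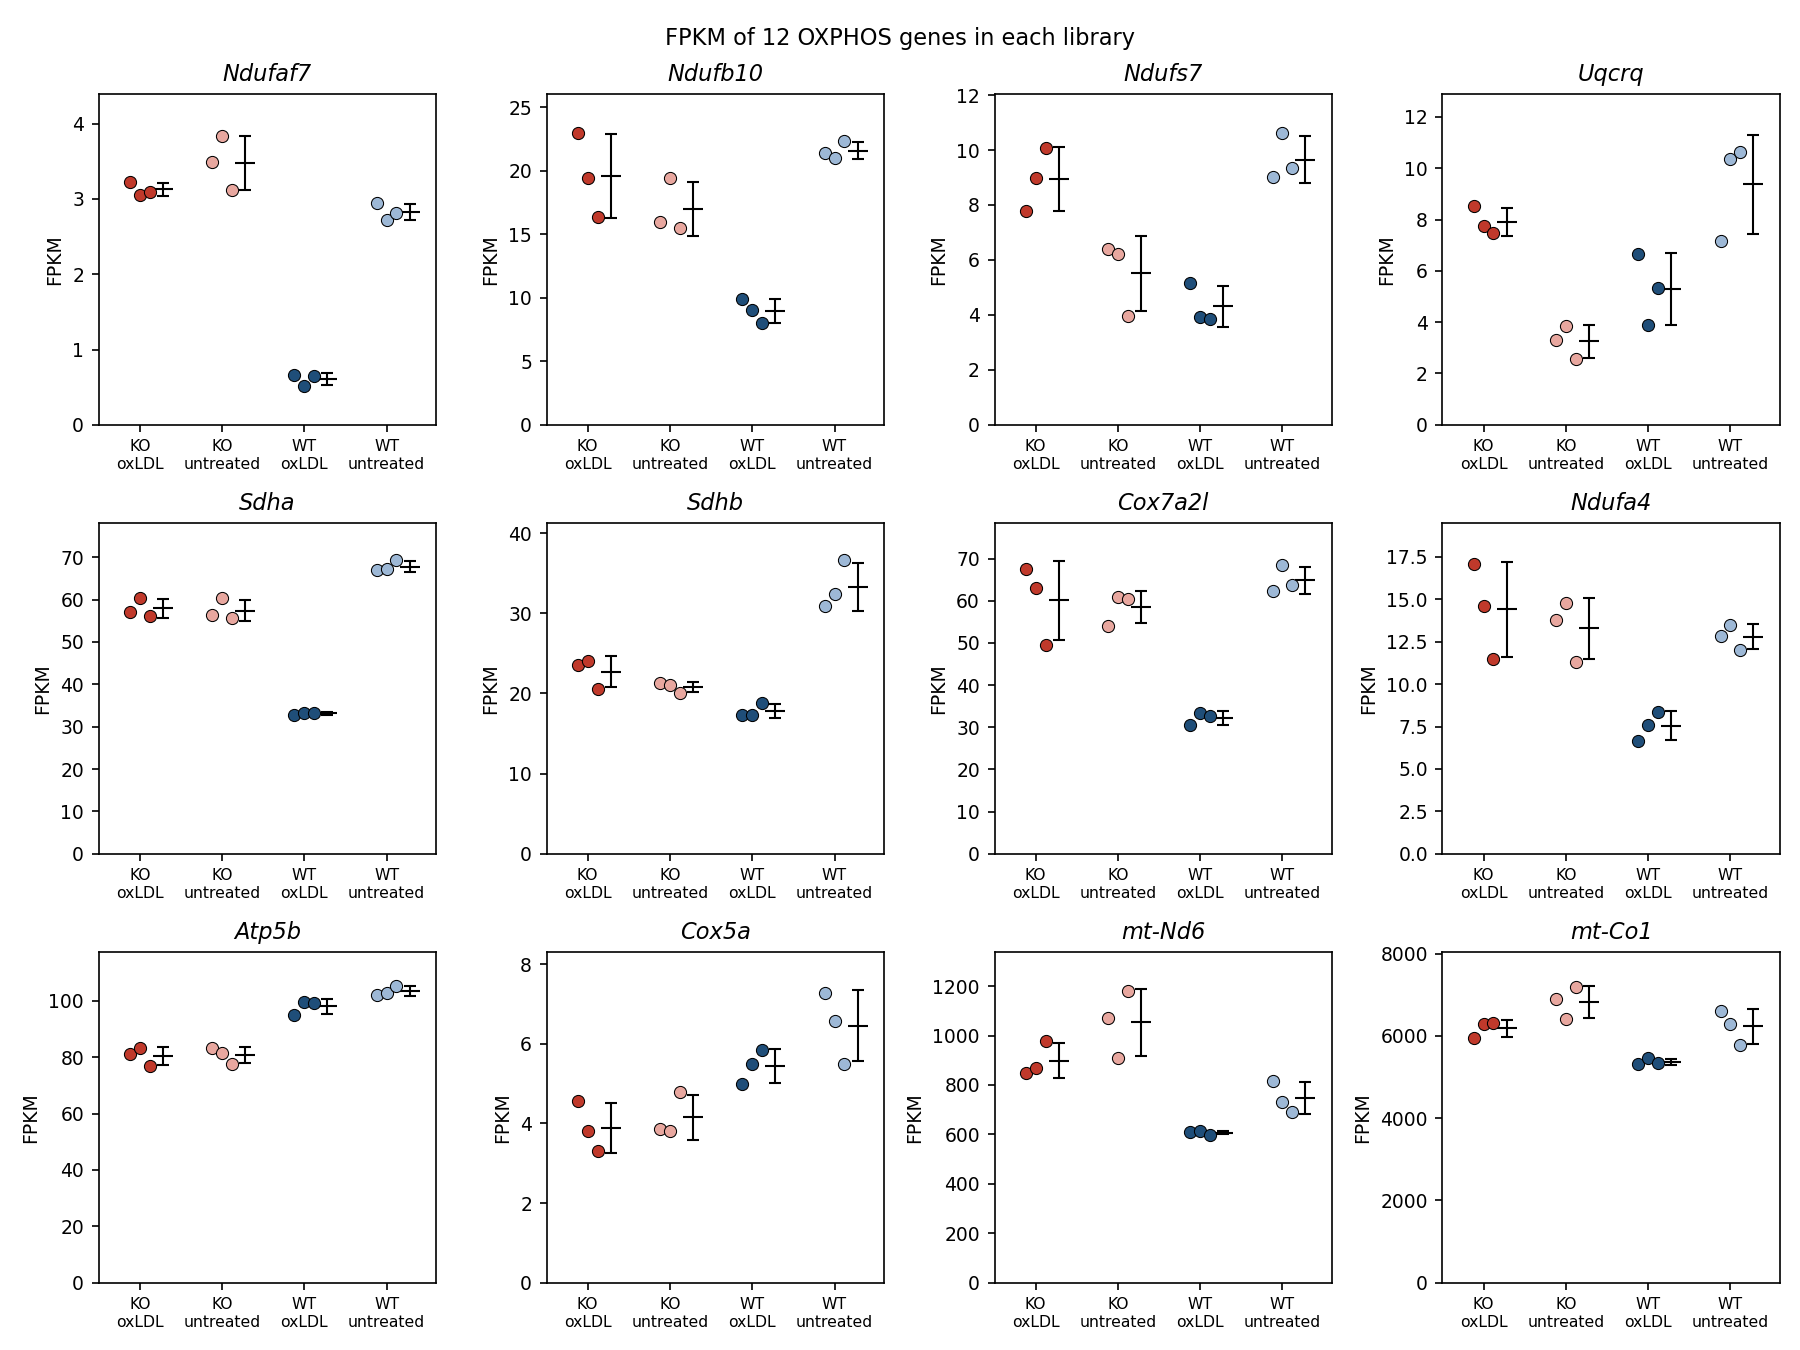
FPKM of 12 members in each library of the 4 groups, each panel with its own axis from 0; bars give the mean and SD of n = 3. Ndufaf7, Ndufb10, Sdha, Cox7a2l and Ndufa4 are lowest in WT with oxLDL, Uqcrq is lowest in untreated KO, and Atp5b and Cox5a are lower in the KO groups than in the WT groups.

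The difference between the oxLDL changes, that in KO minus that in WT, was tested as an interaction. It was positive and called in 40 of 89 nuclear members and negative and called in 1, while 1 mitochondrially encoded member was positive and 3 were negative. Over all genes 22.1% were called positive and 19.6% negative. The median was 0.47 over nuclear members and -0.11 over mitochondrially encoded members, beside 0.08 for all genes. With library totals alone, 76 nuclear members were positive and none negative, and 5 mitochondrially encoded members were positive and none negative, where 41.5% of all genes were called positive and 10.6% negative. Relative to the median of all genes, nuclear members stood at 0.39 and mitochondrially encoded members at -0.194 and -0.195 under the TMM and library total scalings. The mitochondrial value was -0.0858 without WT untreated replicate 3, -0.306 without WT untreated replicate 1, -0.309 without KO untreated replicate 2 and -0.0512 in limma on log2(FPKM + 1). By complex, 21 of 37 nuclear complex I subunits, 2 of 8 Ndufaf factors, 3 of 4 complex II genes, 3 of 8 complex III, 1 of 14 complex IV and 9 of 17 ATP synthase nuclear members were positive. The complex IV share was below the 22.1% of all genes. Its 1 call was that of Cox6b2, which had few counts and lost the call without any of several single libraries.

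Apart from Cox6b2, which had 0 counts in WT with oxLDL, Uqcrq had the largest called interaction, at 1.69 ± 0.28 (adjusted p = 0.000165 in edgeR's test). Its fitted oxLDL change was 1.28 ± 0.20 in KO and -0.41 ± 0.19 in WT, neither of them called. Ndufaf7 followed at 1.64 ± 0.16 (adjusted p = 1.13e-06), from -0.15 ± 0.11 in KO and -1.79 ± 0.12 in WT. Ndufs7 stood at 1.44 ± 0.24 (adjusted p = 0.000205) and Ndufb10 at 1.06 ± 0.17 (adjusted p = 0.000184). Ndufc1 stood at 0.98 ± 0.35 (adjusted p = 0.0396) and lost its call without replicate 1 or 2 of either WT group, KO oxLDL replicate 1 or 2, or KO untreated replicate 3 (adjusted p between 0.0717 and 0.111). Sdha, at 0.64 ± 0.06, had the smallest adjusted p of any member, 6.17e-07, and its libraries in both KO groups lay between those of the WT groups.

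The negative interactions were those of Atp5b at -0.34 ± 0.06 (adjusted p = 0.000236 in edgeR's test), mt-Co1 at -0.34 ± 0.07 (adjusted p = 0.00182), mt-Nd5 at -0.35 ± 0.12 (adjusted p = 0.0276) and mt-Nd6 at -0.34 ± 0.12 (adjusted p = 0.0374). Scaled by library totals these became 0.0754, 0.0748, 0.0619 and 0.0698, none called. Leaving out a single library kept between 1 and 6 negative mitochondrial calls: 1 without WT oxLDL replicate 1, WT untreated replicate 2 or 3, KO oxLDL replicate 1 or 2, or KO untreated replicate 1 or 3, and 6 without WT untreated replicate 1. The positive mitochondrial call was mt-Nd3 at 0.55 ± 0.20 (adjusted p = 0.0343), and none was left without WT oxLDL replicate 1 or 3, WT untreated replicate 1 or 2, KO oxLDL replicate 1, or KO untreated replicate 1 or 3.

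**Figure D4:**
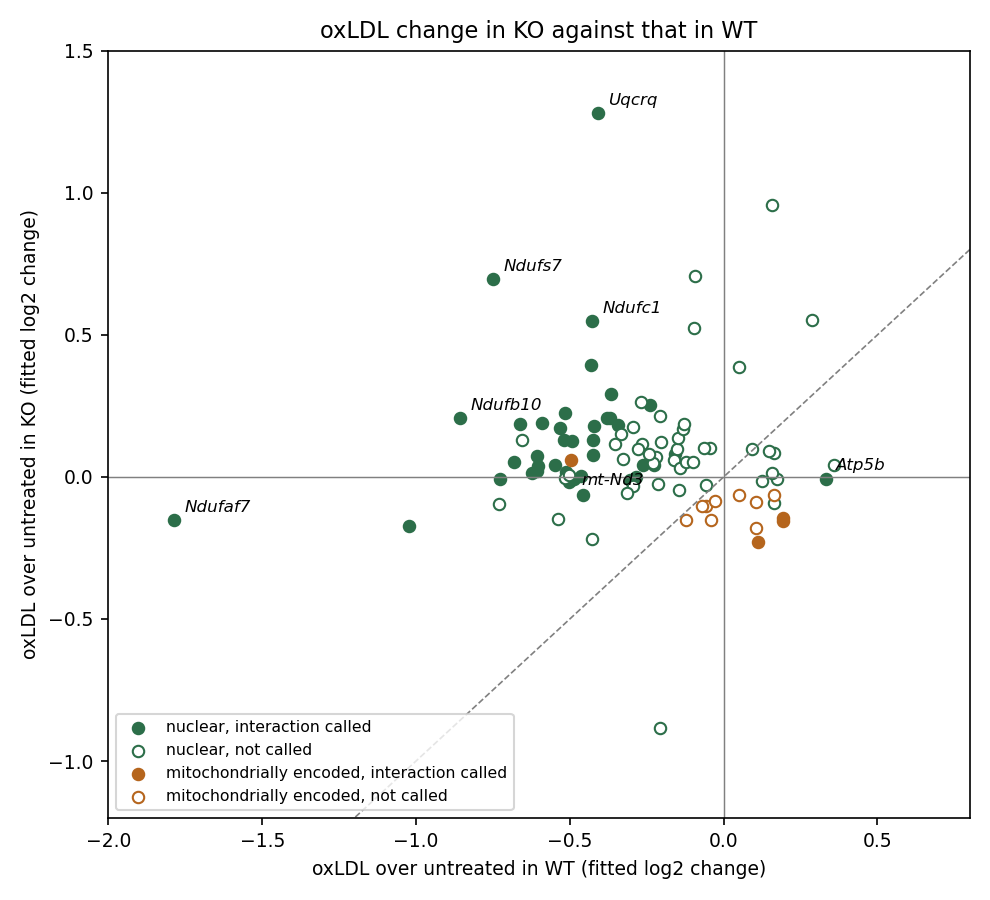
Fitted log2 change with oxLDL in KO (vertical) against that in WT (horizontal) for 100 members (green, nuclear; brown, mitochondrially encoded); filled points have a called interaction and the dashed line marks equal change. Cox6a2 and Cox6b2, with few counts, are not drawn. Most nuclear points lie to the left of 0 and near 0 on the vertical axis, with Uqcrq at 1.28 above the rest.

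Tissue-restricted isoforms of complex IV subunits were at far lower levels than their common forms. Cox6a2 and Cox7a1, the heart and muscle forms of complex IV subunits, averaged 0.2 ± 0.187 and 0.169 ± 0.178 FPKM in KO with oxLDL and at most 0.686 FPKM in any group, and neither was called in any contrast. Their counterparts Cox6a1 and Cox7a2 averaged 16.7 ± 5.04 and 20.5 ± 2.71 FPKM in KO with oxLDL. Cox6b2, the testis form, had 22, 16 and 24 counts in KO with oxLDL, 6, 25 and 8 in untreated KO, 0 in each WT library with oxLDL, and 0, 6 and 18 in untreated WT. Against a floor of 3 counts over the 3 WT libraries with oxLDL, and scaled by effective library size, Cox6b2 was at least 14.8-fold higher in KO with oxLDL (adjusted p = 0.00538 in edgeR's test) and WT with oxLDL at least 5.93-fold lower than untreated WT (adjusted p = 0.0228). The comparison of the WT groups rests on 24 counts and lost its call without WT oxLDL replicate 1 or 3 or WT untreated replicate 3 (adjusted p between 0.0529 and 0.082). Of the common forms with no rare counterpart described here, Cox4i1 was called at -0.23 ± 0.09 with oxLDL in WT and at 0.28 ± 0.09 in KO over WT with oxLDL. The WT call was lost without WT oxLDL replicate 1 or 2, any of the 3 WT untreated replicates, KO oxLDL replicate 2 or KO untreated replicate 3 (adjusted p between 0.0537 and 0.149 in edgeR's test), and the genotype call without WT oxLDL replicate 1 or 2 or KO oxLDL replicate 1 (adjusted p between 0.0524 and 0.078). Cox7b was called at -0.33 ± 0.12 with oxLDL in WT and at -0.38 ± 0.12 in untreated KO over WT. Its WT call was lost without replicate 1 or 2 of either WT group (adjusted p between 0.062 and 0.156), and its genotype call without WT untreated replicate 1 or 2 or KO untreated replicate 1 or 3 (adjusted p between 0.0671 and 0.101). Cox8a was called in no contrast. The common Cox6b1 averaged 53 ± 9.28 FPKM in KO with oxLDL, 49.5 ± 4.37 in untreated KO, 42.3 ± 2.46 in WT with oxLDL and 68 ± 4.41 in untreated WT.

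Ndufa4 was at 17.1, 14.6 and 11.5 FPKM in KO with oxLDL, against 6.65, 7.62 and 8.35 FPKM in WT with oxLDL, a difference of 0.63 ± 0.14 (adjusted p = 0.00153 in edgeR's test). In untreated libraries it was at 13.8, 14.8 and 11.3 FPKM in KO, against 12.8, 13.5 and 12 FPKM in WT, with overlap, and was not called. Its oxLDL value in WT, -0.35 ± 0.14, missed the threshold (adjusted p = 0.0527). AA467197, known as NMES1, encodes a small protein that takes the place of NDUFA4 in complex IV during inflammation; it is no member by name and was listed for this pair. It averaged 1.54 ± 0.195 FPKM in KO with oxLDL, 1.32 ± 0.0925 in untreated KO, 93.7 ± 12.7 in WT with oxLDL and 4.92 ± 0.806 in untreated WT (SD, n = 3 each). Its log2 change with oxLDL was 0.22 ± 0.17 in KO, not called, and 4.65 ± 0.14 in WT (adjusted p = 1.53e-12 in edgeR's test), and the interaction was -4.43 ± 0.21.

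Genes that build or serve the complexes, were taken from lists of other pathway members. Of 40 assembly factors in the table outside the name rule, with oxLDL 7 were called higher and 13 lower in WT and none in KO. Over all genes 23.9% were called higher and 27.2% lower in WT, so these shares were near the background. In KO over WT, 1 was higher and 4 lower untreated, and 16 higher and 8 lower with oxLDL, where all genes had 14.8% and 16.2% untreated and 30.6% and 27.4% with oxLDL. Coa5, a complex IV factor, was at 24.4 ± 0.44 FPKM in KO with oxLDL, against 68.1 ± 0.35 FPKM in WT with oxLDL (-1.78 ± 0.04). Tmem126b, a complex I factor, was at 6.88 ± 0.441 FPKM in KO with oxLDL, against 2.15 ± 0.0344 FPKM in WT with oxLDL (1.37 ± 0.07). Among 6 tested electron carriers and related subunits, 1 was higher and 3 lower with oxLDL in WT. The riser was Cycs, cytochrome c itself, at 39.1 ± 3.83 FPKM in WT with oxLDL, against 22.7 ± 0.144 FPKM in untreated WT (1.19 ± 0.07). It was lower in KO with oxLDL, at 13.1 ± 1.04 FPKM (-1.88 ± 0.07 against WT with oxLDL).

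Of 24 genes of mitochondrial transcription, RNA and DNA upkeep, 7 were higher and 3 lower with oxLDL in WT, none was called in KO, 4 were lower and none higher in untreated KO over WT, and 6 were higher and 10 lower in KO over WT with oxLDL. Over all genes the shares were 23.9% higher and 27.2% lower in WT, 14.8% and 16.2% in untreated KO over WT, and 30.6% and 27.4% in KO over WT with oxLDL, and with 24 genes nothing is read from the counts. Polrmt and Tfam, the polymerase and the packaging factor of the mitochondrial genome, were not called in untreated KO over WT, at -0.20 ± 0.12 and -0.22 ± 0.11. The 4 called lower in that comparison were Tefm at -0.49 ± 0.17, Fastkd3 at -0.37 ± 0.10, Tbrg4 at -0.30 ± 0.09 and Pnpt1 at -0.26 ± 0.05. Any part of these genes in the levels of mitochondrial transcripts was not tested. Pnpt1, which degrades mitochondrial RNA, was at 11.4 ± 0.576 FPKM in untreated KO, against 14.6 ± 0.508 FPKM in untreated WT. With oxLDL it was at 10.4 ± 0.105 FPKM in KO, against 29.4 ± 1.15 FPKM in WT (-1.80 ± 0.05). Among 9 tested nuclear regulators, 5 were called higher and 3 lower with oxLDL in WT. Those lower were Ppargc1a, Ppargc1b and Yy1. Ppargc1b, a coactivator of respiratory genes, was at 1.08 ± 0.0668 FPKM in WT with oxLDL, against 2.8 ± 0.471 FPKM in untreated WT (-0.97 ± 0.14). The related Pprc1 rose by 0.86 ± 0.08, Gabpb1 by 0.73 ± 0.10, Ppard by 0.64 ± 0.12, Esrra by 0.58 ± 0.12 and Nrf1 by 0.53 ± 0.09. Of 7 genes for uncoupling, adenine nucleotide and phosphate carriers and porins, 1 was higher and 5 lower with oxLDL in WT. Ucp2, an inner membrane carrier, was at 58.2 ± 4.5 FPKM in KO with oxLDL, against 22.5 ± 2.22 FPKM in WT with oxLDL (1.07 ± 0.07).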

How the data were processed

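Gene expression was measured by paired-end sequencing of poly(A) RNA (Illumina NovaSeq), per the labels' protocols, whose text also speaks of an adipose type; 2 of 4 adipocyte markers were in the table, at 0 to 0.101 FPKM in sum. Bowtie 0.12.2, HISAT2 2.0 and build mm8 are named in the submitters' processing notes. Of the 105 members, 92 were matched to a GRCm38.p6 gene, and all 92 overlapped it, so positions are given on GRCm38. How reads were counted, with which annotation and whether by strand, is not given in the sources used here. Reads of overlapping genes (mt-Atp8 and mt-Atp6, mt-Nd4l and mt-Nd4), of opposite strands at mt-Nd6, and of pseudogenes or nuclear copies of mitochondrial sequence could therefore not be assigned apart.

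The authors deposited raw read counts and FPKM values per gene and library, per the file headers; all per-sample columns were used. From the counts, edgeR 4.0.16 (R 4.3.3) was run with TMM scaling and filterByExpr, keeping 17291 genes. The 4 groups were fitted together without a block (common dispersion 0.0279, 5.57 prior degrees of freedom), with 5 contrasts. Shares of counts were compared by exact two-sided permutation tests (scipy 1.17.1). The scripts were tested on simulated data. Where a group held 0 counts, a fold is a bound against 3 counts over the group, which covers counting error only.

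The alternatives were library totals alone, TMM without the mitochondrial genes, DESeq2 1.42.0, no filter on low counts, limma 3.58.1 on log2(FPKM + 1) and log2(FPKM + 0.1) over genes with at least 1 FPKM in 3 libraries, an offset for gene length, a replicate block, and leaving out each library. The members and lists were chosen with earlier results of these data known. Members were named by rule: all mitochondrially encoded and Sdh genes, up to 6 called rises and falls per contrast, isoform pairs, the highest and lowest member of each complex, and the 6 largest interactions where the genotype calls differed. Others (Atp5a1, Atp5pb, Uqcrb, Uqcrh, Ndufs6b, Cox6c2 and single genes from the other lists) were chosen after their values were seen.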

Additional observations from a re-analysis of the deposited data

Results flagged for a closer look

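The effect of oxLDL differed between the genotypes, by the interaction test in edgeR, in the members called here, while 57 of the 102 tested were not called. Of the 89 nuclear members, 40 had a higher fitted oxLDL change in KO than in WT and 1, Atp5b, a lower one. Over all genes 22.1% were called higher and 19.6% lower in this test. Of the mitochondrially encoded members, 1, mt-Nd3, had a higher change and 3 a lower one. With library totals alone Atp5b and these 3 turned positive, at 0.0754 for Atp5b, and were not called. Leaving out a single library kept between 1 and 6 lower mitochondrial calls, and the mt-Nd3 call was lost without any of several libraries.

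The largest were Cox6b2 at 6.59, Uqcrq at 1.69, Ndufaf7 at 1.64, Ndufs7 at 1.44, Ndufb10 at 1.06 and Ndufc1 at 0.98 on the log2 scale. The Cox6b2 value rests on 0 counts in WT with oxLDL, depends on the prior count of the fit and is no measure of size. There were 22, 16 and 24 Cox6b2 counts in KO with oxLDL, and its interaction lost its call without each of 9 single libraries (adjusted p between 0.0523 and 0.0929). In 37 members the interaction was called and the genotype call differed between untreated and oxLDL libraries, which is 36.3% of the 102 tested, where 25.2% of all genes tested had this pattern. The interaction is itself the difference between the 2 genotype contrasts in the same libraries, so the pattern adds no separate evidence.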

How the results depend on the processing

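The choice of scaling mattered most. With library totals alone, limma on log2(FPKM + 1) and limma on log2(FPKM + 0.1), in that order, nuclear members called lower with oxLDL in WT were 77, 78 and 78 and those called higher 0, 0 and 0, and mitochondrially encoded members called lower were 13, 13 and 13 and higher 0, 0 and 0. These fits tested 89, 83 and 83 nuclear members among 17291, 11121 and 11121 genes. Of all genes, 10544, 8859 and 8843 were called with oxLDL in WT, and 2222, 1962 and 1938 of these were higher. Most genes called were thus lower. In untreated KO over WT, nuclear members called lower were 43, 47 and 45, and with library totals 0 were higher. Of all genes, 5615, 5168 and 5017 were called there, 1766, 1704 and 1637 of them higher. In KO over WT with oxLDL, nuclear members called higher were 64, 65 and 65 and lower 4, 4 and 4. Of all genes, 10840, 8790 and 8792 were called there, 7538, 6129 and 6139 of them higher. For the interaction, nuclear members called positive were 76, 76 and 76 and negative 0, 0 and 0, and mitochondrially encoded members called positive were 5, 5 and 5 and negative 0, 0 and 0. Of all genes, 9008, 7977 and 7959 had a called interaction, 7174, 6194 and 6212 of them positive. DESeq2 called 4 nuclear and 3 mitochondrially encoded members higher with oxLDL in WT, 2 nuclear members higher with oxLDL in KO, 1 mitochondrially encoded member lower in KO over WT with oxLDL and 3 nuclear members negative for the interaction. The gene length offset gave 48 of 89 nuclear members higher in KO over WT with oxLDL, where 5588 of 17291 genes were called higher. That nuclear share was above the background. The offset also gave 0 mitochondrially encoded members higher with oxLDL in WT and 1 negative for the interaction, and no filter on low counts gave 1 of the last. In untreated KO over WT the offset left fewer nuclear members called lower, nearer to the share of all genes. Scaling without mitochondrial genes changed none of these counts of members. The cause of these differences was not tested.

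Leaving out 1 library at a time gave 1 to 3 nuclear and 1 to 4 mitochondrially encoded members higher with oxLDL in WT, 0 to 1 nuclear members higher with oxLDL in KO, 0 to 1 nuclear members higher and 11 to 28 lower in untreated KO over WT, and 0 to 1 mitochondrially encoded members positive and 1 to 6 negative for the interaction. The mitochondrial share for oxLDL over untreated in WT turned to a ratio difference of 1.331 when taken over nuclear member counts, since the nuclear share differed by more in relative terms. WT with oxLDL stood at 0.66 of untreated WT in the nuclear share and at 0.81 in the mitochondrial share.

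Of 510 member values, 61 changed sign with library totals alone, and 28 of these were called under neither scaling. Values of the members named by rule that changed sign and were called under at least 1 of the 2 fits compared were as follows, under library totals, limma with 1 and limma with 0.1 in that order. With oxLDL in WT they were -0.077, -0.0762 and -0.0768 for Atp5b, -0.26, -0.25 and -0.26 for Cox7a2, -0.25, -0.24 and -0.25 for Uqcrc2, -0.24, -0.23 and -0.24 for Uqcrfs1, and -0.22 and -0.24 for Ndufs4 under limma, which with library totals stood at -0.24 and was not called. They were -0.30, -0.30 and -0.30 for mt-Atp6, -0.25, -0.24 and -0.24 for mt-Atp8, -0.21, -0.21 and -0.21 for mt-Co1, -0.30, -0.30 and -0.30 for mt-Nd4, -0.36, -0.35 and -0.35 for mt-Nd4l, -0.22, -0.21 and -0.21 for mt-Nd5, and -0.30, -0.29 and -0.29 for mt-Nd6. In KO over WT with oxLDL they were 0.28, 0.26 and 0.28 for Sdhc, 0.12, 0.12 and 0.12 for Uqcrc2, and 0.20, 0.20 and 0.20 for mt-Co1. For the interaction they were 0.0754, 0.0705 and 0.0712 for Atp5b, 0.36, 0.33 and 0.34 for Cox7a2, 0.27, 0.26 and 0.27 for Uqcrc2, 0.33, 0.31 and 0.32 for Uqcrfs1, 0.0748, 0.0695 and 0.0695 for mt-Co1, 0.38, 0.37 and 0.37 for mt-Co2, 0.355, 0.35 and 0.35 for mt-Co3, 0.37, 0.36 and 0.36 for mt-Cytb, 0.38, 0.38 and 0.38 for mt-Nd1, 0.0619, 0.0557 and 0.0558 for mt-Nd5, and 0.0698, 0.0667 and 0.0669 for mt-Nd6.

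Libraries with the same replicate number did not deviate together (correlations from -0.0449 to 0.031), so the numbers were not taken to pair them. With the replicate block, nuclear members called were 2 higher and 40 lower with oxLDL in WT, 1 and 22 in untreated KO over WT, 27 and 8 in KO over WT with oxLDL, and 39 and 1 for the interaction, and the mitochondrially encoded counts were those without it. With 3 libraries a group, a permutation of shares could not reach p under 0.1. Cox6b2, Cox6a2 and Cox7a1 had too few counts for a stable fold.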
